A study of Mus musculus with 100 samples.

Results

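The genes of the interleukin-12 (IL-12) family encode cytokine subunits that are joined in pairs. Il12b encodes the subunit shared by IL-12 and IL-23, Il12a and Il23a encode the partners that make IL-12 and IL-23, and Il27 and Ebi3 encode the chains of IL-27. Macrophages and dendritic cells make these subunits after Toll-like receptor stimulation, and the secreted pairs act on T cells and natural killer cells through JAK kinases and STAT factors. Chromatin around the 5 genes was described here in mouse bone marrow-derived macrophages (BMDM). A region belonged to a gene when the deposited annotation gave that gene as the one with the nearest transcription start site (TSS). Of 610301 regions in 15 tables, 359 carried Il12a (125 regions), Il12b (113), Il27 (79), Il23a (26) or Ebi3 (16) as the gene name, which is 5 of 18524 gene names. A nearest TSS does not show that a region acts on that gene.

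ChIP-seq, which counts DNA fragments recovered with an antibody, was performed for acetylated lysine 27 of histone H3 (H3K27ac), found at promoters and enhancers in use, and for 8 proteins. These were the corepressor NCoR and its histone deacetylase partner HDAC3, the coactivators PGC1β and p300, the kinase ERK1, and the DNA-binding factors p65 (the RelA subunit of NF-κB), Fosl2 (an AP-1 subunit) and PU.1 (a macrophage lineage factor). BMDM of C57BL/6 mice received vehicle (Veh) or KLA (Kdo2 lipid A, an agonist of the lipopolysaccharide receptor TLR4) for 6 h, and for p300 the Veh libraries carry the label KLA 0 h in their descriptions. Each of the 35 groups used had 2 libraries, with no age given in the labels. The question was which regions near these genes gained or lost a factor or the mark with the TLR4 signal, and how far NCoR, PGC1β, HDAC3 activity or ERK activity altered that.

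H3K27ac was measured in Veh and KLA in WT cells (genotype NCoR flox/flox, no Cre) and NKO cells (the same alleles with LysMCre), and, in a separate experiment, in PGC1b flox/flox cells without or with LysMCre. LysMCre expresses Cre from the LysM promoter, which is active in macrophages and other myeloid cells, and the controls of both experiments carried the floxed alleles. Another H3K27ac experiment compared WT BMDM with DMSO and Veh, DMSO and KLA, or the HDAC3 inhibitor RGFP966 and KLA. NCoR and PGC1β were also mapped in KLA with the ERK inhibitor LY3214996 (ERKi). ERK1 and p300 were mapped in bone marrow cells at Day 0 and Day 4 of osteoclast differentiation with RANKL. The titles of these libraries give WT, and the descriptions of these ERK1 libraries, except Day 4 replicate 2, give NCoRWT.

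The p65 peak with the highest mean KLA tags at each of 4 genes, not that with the largest gain, and the promoter of Ebi3 are shown first. The regions of Ebi3 all lay at its TSS. The binding values further below are tag counts over listed regions and were not derived from the sequences. The letters are reference sequence of mm10 read on the strand of the gene, and capitals mark a match to a motif of the list below. The promoter of Ebi3 (chr17:55952373-55952622, plus strand) is the 250 bases before the RefSeq start, and each of the other sequences is 1 whole p65 peak. The peak 56.9 kb upstream of Il12a is chr3:68633622-68633828 (plus strand, intergenic), and the peak 9.9 kb upstream of Il12b is chr11:44390002-44390240 (plus strand, intergenic). The peak 0.9 kb upstream of Il23a is chr10:128298850-128299070 (minus strand), and the peak 4.3 kb upstream of Il27 is chr7:126599082-126599294 (minus strand, intergenic).
Il12a, 56.9 kb upstream: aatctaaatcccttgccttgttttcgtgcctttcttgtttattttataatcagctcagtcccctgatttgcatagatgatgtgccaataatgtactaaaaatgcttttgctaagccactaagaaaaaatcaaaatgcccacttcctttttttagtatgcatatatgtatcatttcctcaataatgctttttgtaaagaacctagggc
Il12b, 9.9 kb upstream: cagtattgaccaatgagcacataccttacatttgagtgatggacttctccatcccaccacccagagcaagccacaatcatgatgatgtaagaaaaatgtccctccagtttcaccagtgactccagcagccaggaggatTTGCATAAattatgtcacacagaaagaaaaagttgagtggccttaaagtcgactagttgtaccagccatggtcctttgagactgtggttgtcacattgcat
Il23a, 0.9 kb upstream: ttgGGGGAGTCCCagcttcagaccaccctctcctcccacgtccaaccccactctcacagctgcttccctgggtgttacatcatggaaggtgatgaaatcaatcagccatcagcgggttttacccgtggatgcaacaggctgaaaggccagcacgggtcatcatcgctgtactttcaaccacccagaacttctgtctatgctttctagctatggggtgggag
Il27, 4.3 kb upstream: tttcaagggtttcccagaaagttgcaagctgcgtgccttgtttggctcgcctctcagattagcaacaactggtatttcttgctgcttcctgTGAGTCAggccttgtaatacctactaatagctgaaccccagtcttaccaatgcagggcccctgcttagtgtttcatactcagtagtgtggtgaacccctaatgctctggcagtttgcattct
Ebi3, promoter: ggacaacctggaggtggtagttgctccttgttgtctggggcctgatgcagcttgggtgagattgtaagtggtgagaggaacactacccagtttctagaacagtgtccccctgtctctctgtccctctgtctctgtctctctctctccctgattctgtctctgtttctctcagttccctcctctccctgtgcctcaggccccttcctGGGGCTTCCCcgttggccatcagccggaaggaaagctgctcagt

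Letters of 5 motifs were looked for on both strands: AP-1 (TGANTCA), PU.1 (GAGGAAG), C/EBP (TTGCNNAA), the interferon-response element (GAAANNGAA) and the κB consensus. The Il12b peak held a C/EBP match, TTGCATAA, at base 139, and the Il27 peak held an AP-1 match, TGAGTCA, at base 92. The Il23a peak held a κB match, GGGGAGTCCC, at base 4, and the Ebi3 promoter held one, GGGGCTTCCC, at base 207. None of the 5 motifs was found in the 207 bases of the Il12a peak, which says only that those letters are not in that window. In the central 200 bases of p65 peaks, κB letters were present in 5 of 44 member peaks (11.4%) and in 7.61% of all 52624 peaks. The κB match of the printed Il23a peak lies outside its central 200 bases, so that peak is not among the 5. For AP-1 the values were 2 of 44 (4.55%) and 21.7%, for PU.1 10 of 44 (22.7%) and 21.97%, for C/EBP 7 of 44 (15.9%) and 16.9%, and for the interferon-response element 8 of 44 (18.2%) and 11.5%. In promoters of 300 bases the 5 motifs were present in 4.51% (κB) to 13.6% (PU.1) of 32851 entries, and of the 4 member promoters in that table, of Il12a, Il12b and Ebi3, 1 held the κB letters.

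The 48 factor libraries held 4.30 to 21.5 M tags and the 22 H3K27ac libraries 11.5 to 19.6 M. Between 2.79% and 52.8% of the tags of a library lay in the listed regions, and that share differed between some of the groups compared. Calls were therefore also made after TMM scaling, which sets libraries by the typical region instead of by total tags. Values are tags per 10 M tags of the library, differences are on the log2 scale with the standard error (SE) of the fit, and n = 2 libraries per group. A region was tested from 4 tags in 1 library for factors and from 16 for H3K27ac, and it was called higher or lower when edgeR's quasi-likelihood test gave an adjusted p under 0.05 and the change was over 2-fold. Of the macrophage markers Csf1r, Adgre1, Itgam, Cd68 and Spi1, 5 of 5 had H3K27ac within 2 kb of the TSS in both tables of 1000-base windows, with medians of 230 to 610 tags, and 3 of 5 in the WT and NKO table. T cell, B cell and fibroblast markers had none there, dendritic cell markers reached at most 7.96 in any library (Zbtb46), and of the neutrophil markers S100a8 had a region in both of those tables (medians 40.2 and 57.5) while Ly6g, Mpo and Elane had none. In a population of cells, fewer cells with an open region and less signal per cell cannot be told apart.

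**Figure D1:**
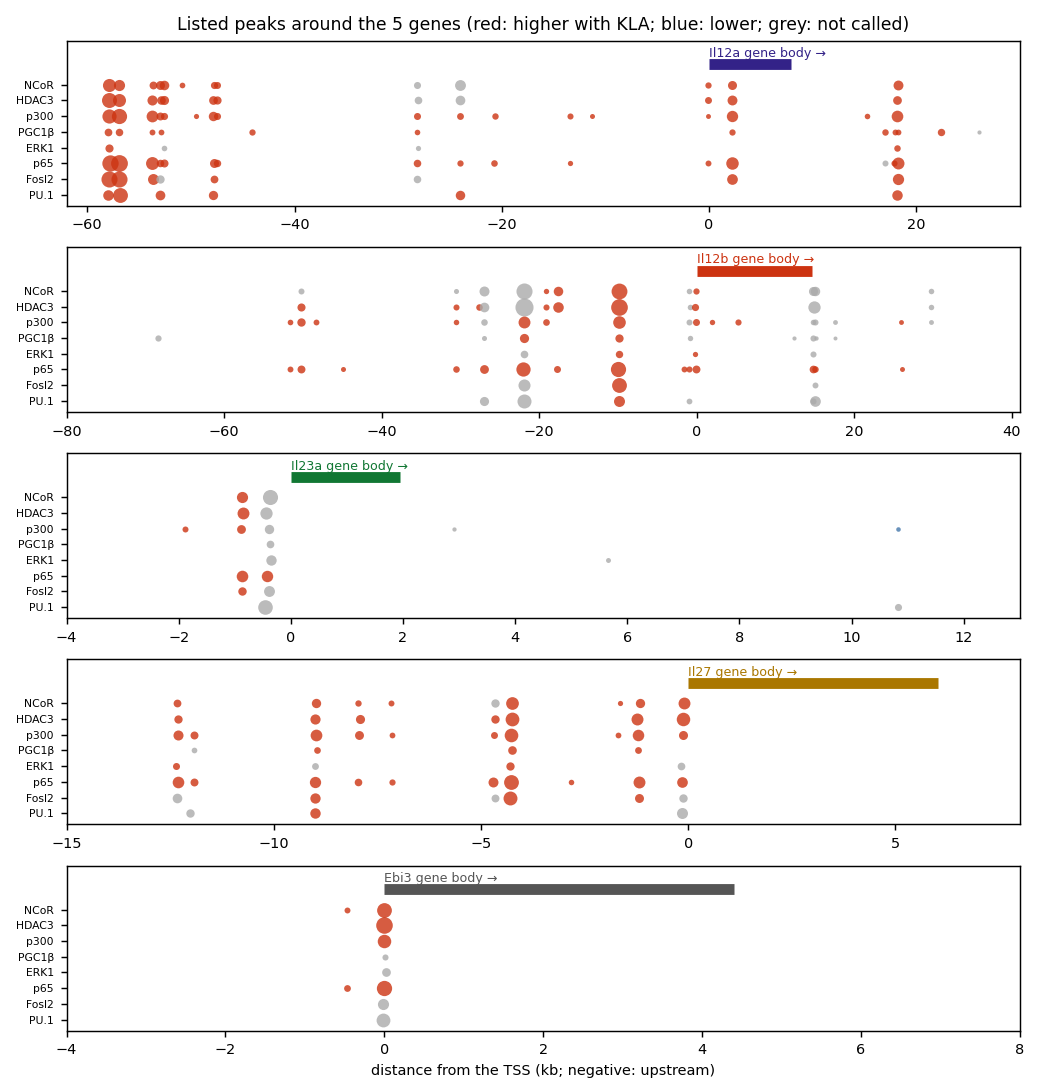
Peaks of the 8 factors (rows) around Il12a, Il12b, Il23a, Il27 and Ebi3 by distance from the TSS in kb (negative values are upstream of the gene). The p300 peaks 235.8 and 225.3 kb upstream of Il12b lie beyond its panel and are not drawn. Red marks regions called higher with KLA than with Veh, blue lower and grey not called; bars show the gene bodies. Red marks lie far upstream as well as at the start of Il12a and Il12b, within 12348 bp of Il27, and at the start alone for Ebi3.

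The regions were unevenly spread over the 5 genes. After regions whose centres lay within 500 bp were joined, the 359 regions formed 63 sites, 26 for Il12b, 20 for Il12a, 10 for Il27, 6 for Il23a and 1 for Ebi3. Regions more than 2 kb from the TSS made up 271 of the 359. The farthest lay 235763 bp from Il12b, 57958 bp from Il12a, 12348 bp from Il27 and 10827 bp from Il23a, and every Ebi3 region lay within 476 bp of its start. At 22 sites at least 5 of the 8 factors had a peak, 9 of them near Il12a, 6 near Il12b, 5 near Il27 and 1 each near Il23a and Ebi3, and at 10 sites all 8 had one. In mm10, Il12a (chr3:68690644-68698550), Il12b (chr11:44400063-44414677) and Ebi3 (chr17:55952623-55957022) lie on the plus strand, and Il23a (chr10:128296140-128298084) and Il27 (chr7:126589009-126595035) on the minus strand. The distances of Il27 were counted from a start 111.5 to 112 bp away from the RefSeq one. Those of Il12a were counted from the nearer of 2 RefSeq starts, which directly follow chr3:68690643 and chr3:68691423.

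KLA resulted in more binding at most member regions for p65, p300, NCoR and HDAC3. For p65, the NF-κB subunit released by TLR4 signalling, 43 of 44 tested member peaks were called higher (median log2 difference 3.41), against 57.0% of all p65 peaks (median 1.46). For p300, a histone acetyltransferase, 42 of 52 were called higher against 42.1% of all, and 1 was called lower against 12.9% of all. NCoR was called higher at 26 of 38 member peaks and 23.4% of all (medians 2.29 and 0.10), and HDAC3 at 26 of 34 and 27.5% of all (medians 2.55 and 0.27). Both of these proteins, known as a repressor and its deacetylase, were thus called higher at the IL-12 family regions in a larger share than among all of their peaks.

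The other 4 factors were called higher at smaller shares of the member peaks. Fosl2 was called higher at 11 of 20 (11.4% of all Fosl2 peaks), PGC1β at 16 of 27 (16.4%), ERK1 at 6 of 15 (10.3%) and PU.1 at 8 of 18 (4.53%). In the second PGC1β experiment, with DMSO in both groups, 22 of 36 were called higher against 16.4%. The median member difference of PU.1 was 0.34 and that of all its peaks -0.41. Of the 8 calls for PU.1, 6 were at Il12a, where it was called higher at 6 of 6 peaks, 1 of 6 was at Il12b and 1 of 3 at Il27.

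Library scaling and single libraries bear on these counts. The p65 libraries held 12.7% and 14.4% of their tags in peaks with Veh and 34.1% and 37.1% with KLA, and the p300 libraries 23.7% and 21.99%, then 35.5% and 35.3%. For 2 factors the KLA replicates differed from each other. Fosl2 held 22.2% and 17.6% with Veh and 16.4% and 32.3% with KLA. HDAC3 held 34.5% and 33.7%, then 31.2% and 46.5%, and its KLA replicate 2 had 5.69 M tags. The share went from 51.6% and 52.8% to 41.5% and 41.7% for PU.1 and from 16.9% and 21.4% to 28.1% and 26.6% for PGC1β with DMSO. With TMM scaling the median of all p65 peaks was 0.24 instead of 1.46, the split of all p65 peaks went from 29981 higher and 2859 lower to 14540 and 11205, and 30 of 44 member peaks were called higher. With the same scaling the member calls were 26 for NCoR, 23 for HDAC3, 16 for Fosl2, 8 for PU.1, 15 for PGC1β (16 with DMSO), 5 for ERK1, and 37 higher and 3 lower for p300. Of all peaks it called higher 13150 of 55045 for NCoR and 11800 of 48502 for HDAC3. For Fosl2 these were 5933 of 31283, for PU.1 4629 of 50690 and for ERK1 2266 of 27931. For PGC1β they were 7227 of 45675 (4658 of 53474 with DMSO). Of all 67998 p300 peaks, 22267 were called higher and 16245 lower. The Fosl2 count of 11 fell to 0 without Veh replicate 1 or Veh replicate 2 and rose to 18 without KLA replicate 1. The ERK1 count of 6 became 2 without KLA replicate 1 and 3 without KLA replicate 2, the NCoR count of 26 became 15 and 16 without the same libraries, the p65 count of 43 became 28 without KLA replicate 1, and the second PGC1β count of 22 became 11 without DMSO Veh replicate 1.

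**Figure D2:**
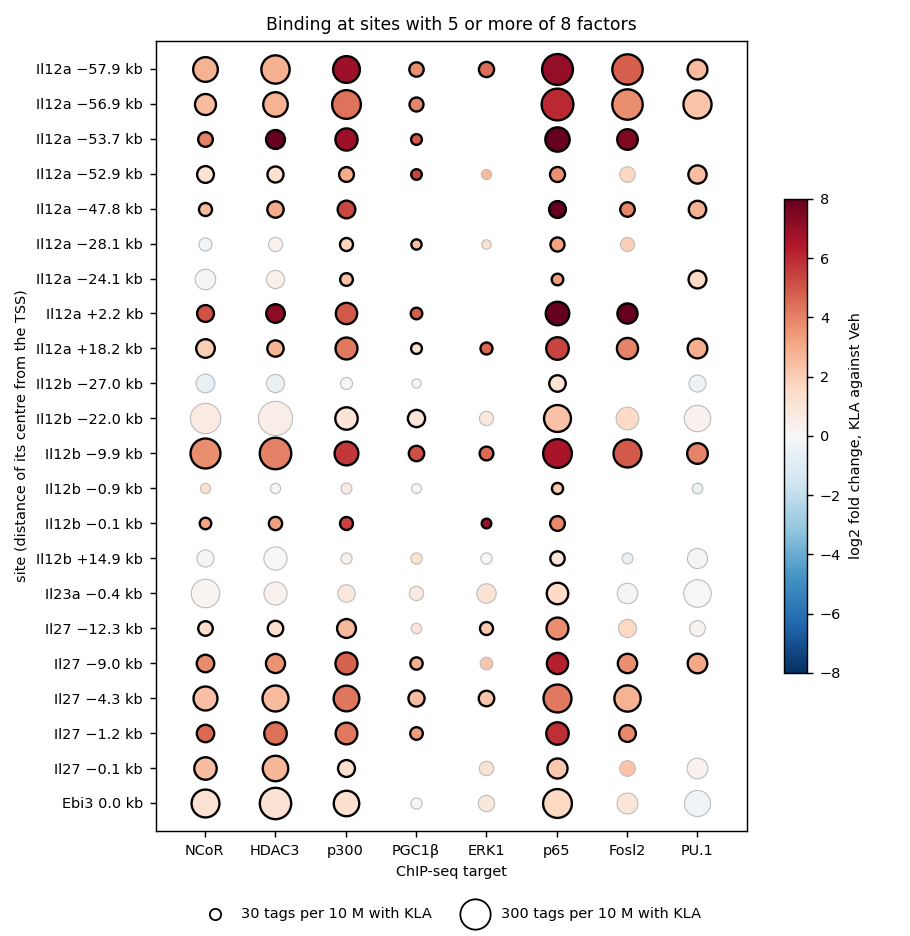
The 22 sites bound by at least 5 factors (rows, named by gene and distance from the TSS in kb, negative upstream) against the 8 factors (columns). Circle area grows with the mean KLA tags per 10 M, colour gives the log2 difference between KLA and Veh, and a black outline marks a called region. Most Il12a rows hold outlined red circles, while Il12b at 27 kb upstream and PU.1 at Il23a and Ebi3 are pale.

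A factor counted as called at a site when any of its peaks there was. At 10 of the 22 sites every factor with a peak was called higher, and at 17 the called factors equalled or outnumbered the others. Such sites were not counted for other genes or with TMM scaling, so the counts do not show what is particular to these genes. The authors merged the peaks of Veh and KLA before counting, so a peak found only with KLA was listed because it was high there. Its call was largely fixed in advance, and a factor without a peak at a site did not enter the count of that site. Of all p65 peaks 57.0% and of all p300 peaks 42.1% were called higher. The called factors were the minority at 5 sites: 28.1 kb upstream of Il12a (3 of 7 factors), and 27 kb upstream (1 of 6), 22 kb upstream (3 of 8), 0.9 kb upstream (1 of 6) and 14.9 kb downstream (1 of 8) of the Il12b start. The sites of Il12b therefore differed widely among themselves.

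Il12b, whose product is common to IL-12 and IL-23, had 1 site where 8 of 8 factors were called higher, 9.9 kb upstream. NCoR there measured 14.3 and 29.4 tags with Veh and 314 and 271 with KLA (log2 difference 3.73, SE 0.30, adjusted p = 3.59e-05). HDAC3 went from 19.6 and 19.9 to 264 and 386 (4.02, SE 0.42). Both proteins were low in each Veh library and far higher in each KLA library. The activators showed the same order. p65 went from 0 and 5.59 to 261 and 275 (6.57, SE 0.50), p300 from 3.76 and 3.29 to 176 and 183 (5.64, SE 0.30), and PGC1β from 2.35 and 1.40 to 69.9 and 65.2 (5.15, SE 0.50). PU.1, which marks enhancers of the macrophage lineage, was also nearly absent before KLA, at 9.83 and 6.85, and reached 130 and 134 (3.95, SE 0.22, adjusted p = 1.12e-35). Fosl2 (1.41 and 14.7 to 193 and 313) and ERK1 (4.72 and 0 to 59.0 and 43.6) were called as well, and the ERK1 call had an adjusted p of 0.0130.

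The sites 22 and 27 kb upstream of Il12b were already bound with Veh. At 22 kb, NCoR measured 148 and 215 with Veh and 298 and 304 with KLA (0.73, not called), HDAC3 271 and 255 and then 316 and 455 (0.54, not called), and PU.1 178 and 181 and then 234 and 216 (0.32, not called). These were among the strongest Veh signals of the gene, and the libraries of the 2 groups did not overlap. Only p65 (24.5 and 66.2 to 238 and 229, 2.37, SE 0.35), p300 (79.6 and 69.7 to 163 and 153, 1.08) and PGC1β (40.0 and 43.2 to 109 and 66.9, 1.06) were called, and with TMM scaling p300 (0.56) and PGC1β (0.92) were not. At 27 kb, NCoR measured 140 and 186 with Veh and 95.6 and 118 with KLA (-0.60, not called), and PU.1 107 and 123 and then 85.1 and 87.9 (-0.40, not called). The signal of both was lower in each KLA library than in each Veh library, without passing the test, and for PU.1 TMM scaling gave 0.02. p65 was called at that site (1.22), and TMM scaling gave 0.01.

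Near the start of Il12b, binding appeared with KLA at low levels. At 0.1 kb upstream NCoR went from 0 and 7.06 to 29.2 and 34.6 (3.13), p65 from 0 and 8.39 to 52.8 and 68.4 (3.86) and p300 from 0 and 1.97 to 45.0 and 42.7 (5.41). ERK1 had no tag in either Veh library and 17.2 and 19.1 with KLA, at least 9.05-fold higher against 3 counts over the group. PU.1 had no peak there. The site 17.7 kb upstream was called for NCoR (2.79), HDAC3 (2.54) and p65 (4.91), and the site 50.3 kb upstream for HDAC3 (1.87), p65 (2.90) and p300 (3.58). At 0.9 kb upstream and 14.9 kb downstream only p65 was called (2.10 and 1.01 in the stronger peaks), and with TMM scaling the values were 0.89 and -0.22.

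**Figure D3:**
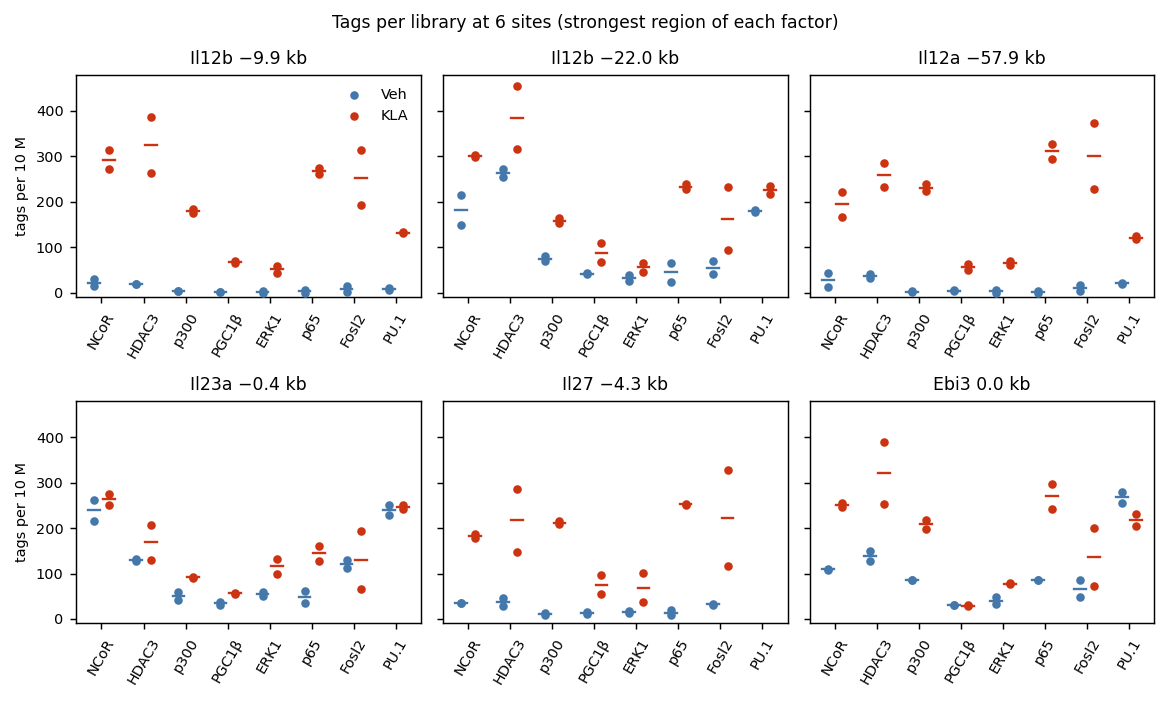
Tags per 10 M of each library at 6 sites, for the 8 factors; blue points are Veh, red points KLA (n = 2 libraries each) and dashes the means. At Il12b 9.9 kb upstream and Il12a 57.9 kb upstream the blue points lie near 0 and the red points far above them, while at Il12b 22 kb upstream and the Il23a start NCoR, HDAC3 and PU.1 are high in both.

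Il12a encodes the IL-12 partner of the Il12b product, and its regions reached from 57.9 kb upstream to beyond the end of the gene. At 57.9 kb upstream 8 of 8 factors were called higher. p65 went from 4.38 and 0 to 295 and 328 (7.05, adjusted p = 1.15e-06) and p300 from 1.25 and 2.63 to 238 and 223 (6.85, adjusted p = 1.29e-10). NCoR went from 12.0 and 43.6 to 222 and 167 (2.80, SE 0.41), HDAC3 from 41.5 and 32.1 to 233 and 286 (2.82), and PU.1 from 22.2 and 18.7 to 124 and 117 (2.54, SE 0.19). All 5 of these were low in both Veh libraries. The site 56.9 kb upstream, whose p65 peak is printed above, was called for 7 of 7 factors, with p65 from 4.38 and 5.59 to 318 and 342 (6.03) and PU.1 from 48.6 and 56.0 to 264 and 247 (2.29).

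Further Il12a sites repeated that order. All factors with a peak were called at 53.7 and 47.8 kb upstream, and at 2.2 and 18.2 kb downstream of the start. The site at 2.2 kb lies in an intron of Il12a. Fosl2 had no tag there in either Veh library and 100 and 150 with KLA, at least 73.7-fold higher against 3 counts over the group. HDAC3 went from 0.73 and 0.55 to 97.9 and 111 (7.17) and NCoR from 0 and 4.78 to 75.4 and 92.3 (5.08). A site 0.1 kb upstream of the second Il12a start lies inside the gene body that begins at the first. There 4 of 4 factors were called, NCoR at 5.53, HDAC3 at 4.98, p300 at 4.27 and p65 at 3.06. The p65 call was lost with TMM scaling (1.88). At 24.1 kb upstream the factors parted. NCoR measured 111 and 133 with Veh and 121 and 138 with KLA (0.08, not called), while PU.1 went from 31.6 and 30.5 to 85.7 and 104 (1.61), and p65 (3.32) and p300 (2.37) were called too.

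Il23a encodes the IL-23 partner of the Il12b product. Its start, a site with all 8 factors, was bound before KLA. At the stronger peak NCoR measured 216 and 263 with Veh and 275 and 251 with KLA (0.14, not called), HDAC3 127 and 131 and then 131 and 207 (0.37, not called), and PU.1 230 and 250 and then 242 and 250 (0.04, not called). For each of these 3 proteins the groups overlapped. p65 was the factor called at this peak, at 34.2 and 61.5 and then 162 and 127 (1.59, adjusted p = 0.00106), and with TMM scaling it was 0.39 and not called. p300 measured 40.7 to 59.6 and then 90.5 to 93.0, and ERK1 59.8 and 49.7 and then 99.6 and 132 (adjusted p = 0.0614), neither called.

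A neighbouring Il23a peak, 0.9 kb upstream, behaved otherwise and is the one printed above. p65 went from 0 and 2.80 to 144 and 153 (6.68), NCoR from 26.3 and 7.06 to 127 and 147 (3.04), and HDAC3 from 10.2 and 9.40 to 117 and 200 (3.98). Fosl2 (3.80) and p300 (3.93) were called there as well. The single member region called lower with KLA was a p300 peak 10.8 kb downstream of the Il23a start, inside the gene body of Stat2, at 25.6 to 32.6 with Veh and 8.19 to 10.8 with KLA (-1.61, adjusted p = 0.00472).

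Il27, which encodes the alpha chain of IL-27, had 5 sites with at least 5 factors. At 4.3 kb upstream every factor with a peak was called, and PU.1 had no peak. p65 went from 8.76 and 18.6 to 254 and 252 (4.21), p300 from 13.2 and 8.54 to 208 and 215 (4.27), NCoR from 34.7 and 35.3 to 179 and 186 (2.38), and HDAC3 from 45.8 and 28.8 to 147 and 286 (2.52). The Veh and KLA libraries were far apart for each of the 4. At 9.0 kb upstream 7 of 8 factors were called, among them PU.1, from 12.9 and 14.3 to 136 and 98.8 (3.11). At 1.2 kb upstream 6 of 6 were called, and NCoR went from 3.59 and 3.53 to 89.9 in both KLA libraries (4.62). The promoter differed from these sites in PU.1, which measured 98.8 and 108 and then 134 and 132 (0.36, not called). NCoR (25.1 and 30.6 to 170 and 146, 2.50) and HDAC3 (2.67) were called at the promoter, and so were p65 (2.14) and p300 (1.39), whose calls were lost with TMM scaling (0.92 and 0.87).

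Ebi3, which encodes the beta chain that pairs with the Il27 product, had 1 site, at its start, inside the RefSeq gene body of its neighbour Zfp119b. It was bound by all 8 factors with Veh. At its stronger peak NCoR went from 110 and 108 to 256 and 247 (1.20, SE 0.19, adjusted p = 0.000831). HDAC3 (127 and 149 to 254 and 390, 1.21), p65 (85.8 and 85.8 to 242 and 298, 1.65) and p300 (84.6 and 86.7 to 198 and 218, 1.28) were called too. A weaker NCoR peak 0.5 kb upstream, nearly empty with Veh at 0 and 3.53, reached 27.5 and 26.98 (3.85, SE 0.80, adjusted p = 0.00312). At the stronger peaks TMM scaling left only the NCoR call of these 4, with 0.90 for HDAC3, 0.42 for p65 and 0.76 for p300. PU.1 measured 256 and 280 with Veh and 232 and 205 with KLA (-0.29, not called, and 0.13 with TMM scaling). PGC1β measured 30.6 and 31.6 and then 31.7 and 27.5, and the groups of PGC1β overlapped.

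H3K27ac rose with KLA at 4 of 8 tested member regions in WT cells and 4 of 8 in NKO cells, where 6.49% and 2.75% of all regions were called higher. The Il23a start carried the largest gain in WT cells, from 2.52 and 3.56 to 27.04 and 43.4 (3.48, SE 0.54, adjusted p = 4.26e-06), although NCoR, HDAC3 and PU.1 were not called at its stronger peak. Il12a rose at 57.9 kb upstream (3.15 and 3.06 to 18.9 and 24.1, 2.76) and 18.2 kb downstream (3.15 and 2.55 to 17.6 and 20.7, 2.72). The Il27 promoter rose from 8.20 and 9.17 to 25.8 and 26.2 (1.57, adjusted p = 0.0322), a call lost with TMM scaling (1.43). In NKO cells the calls were at Il23a (4.42 and 3.48 to 30.8 and 16.7, 2.59), Il12a 57.9 kb upstream (2.23) and 2.2 kb downstream (3.03), and Il27 4.3 kb upstream (16.2 and 8.71 to 49.9 and 27.1, 1.66). Ebi3 of WT cells measured 31.5 and 38.2 and then 52.8 and 62.7 (0.72, not called), and its libraries did not overlap. The WT count of 4 became 2 without WT Veh replicate 1 or 2, and the NKO count 2 without NKO Veh replicate 1 or NKO KLA replicate 1. The Il12b regions of this table, 22 and 9.9 kb upstream, held too few tags to be tested (at most 4.17 per 10 M).

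In the tables of 1000-base windows Il12b could be measured, at 27, 22 and 0.9 kb upstream. Those tables held no region at 9.9 kb upstream of Il12b or 57.9 kb upstream of Il12a, where 8 of 8 factors were called higher. With DMSO 6 of 9 member regions were called higher with KLA (6.73% of all regions), in PGC1b flox/flox cells 7 of 9 (5.22%) and in PGC1b flox/flox, LysMCre cells 6 of 9 (4.18%). The region 27 kb upstream of Il12b, where NCoR and PU.1 were not called, gained the mark in each: from 30.7 and 27.04 to 52.5 and 68.2 with DMSO (1.05), from 28.6 and 20.8 to 116 and 100.5 in flox/flox (2.11) and from 23.7 and 15.9 to 147 and 153 with Cre (2.91). Il23a went from 22.4 and 16.6 to 85.5 and 64.8 with DMSO (1.95), and Ebi3 from 104 and 107 to 280 and 252 (1.33). At 18.2 kb downstream of the Il12a start the mark went from 3.32 and 7.85 to 71.2 and 68.2 (3.63). Il27 had no region in these tables. Without flox Veh replicate 2 the flox/flox count was 4. The share of tags in regions went from 31.5% and 30.6% to 27.9% and 22.9% with DMSO, from 35.8% and 35.9% to 29.9% and 30.1% in flox/flox and from 31.6% and 30.9% to 22.4% and 21.97% with Cre. With TMM scaling the member counts were 7, 8 and 7. Of all regions that scaling called higher 3124 of 25045, 2480 of 25197 and 2712 of 25197, in the same order.

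**Figure D4:**
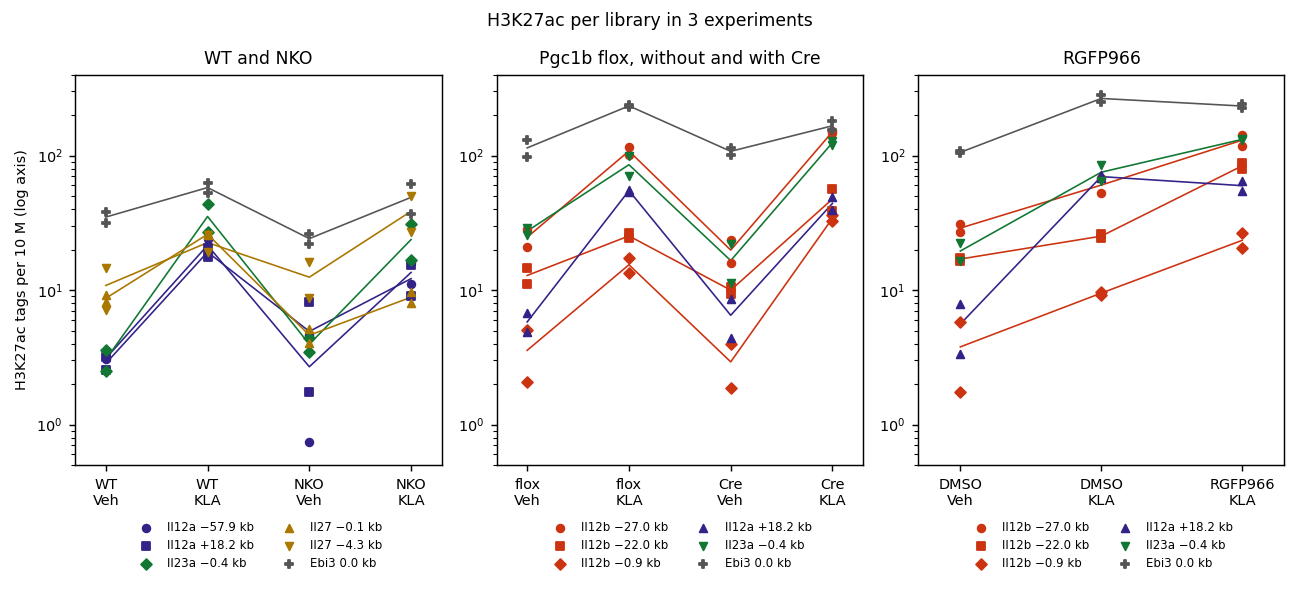
H3K27ac tags per 10 M (log axis) at member regions in the 3 experiments: WT and NKO, PGC1b flox/flox without and with LysMCre, and DMSO with RGFP966. Points are libraries (n = 2 per group) and lines join the group means. KLA points lie above Veh points for Il23a in each experiment, and RGFP966 points lie above KLA points at the Il12b regions but not at Ebi3.

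No tested member region was called for NCoR deletion by edgeR's test. The H3K27ac counts do not show whether the floxed exons were lost. With Veh 0 of 8 were called (1.00% of all regions called in either direction), with KLA 0 (0.789%), and for the difference of the KLA responses 0 (0.697%). An unadjusted p under 0.05 was reached at 0, 1 and 0 of the 8, and DESeq2 called 0 in each. The largest of the differences in KLA was at the Il27 promoter, where WT measured 25.8 and 26.2 and NKO 7.96 and 9.72 (-1.55, SE 0.52, adjusted p = 0.134), and the libraries did not overlap. At 4.3 kb upstream of Il27 the order was the other way, with 25.8 and 19.3 in WT and 49.9 and 27.1 in NKO (0.78). For Il23a WT measured 27.04 and 43.4 and NKO 30.8 and 16.7 (-0.55), and for Il12a at 57.9 kb upstream 18.9 and 24.1 and 15.9 and 11.1 (-0.65). The median over members was -0.40 and over all regions -0.04.

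With the PGC1b floxed alleles, H3K27ac after KLA was called higher with LysMCre at 1 Il12b region and at no other member region. With Veh 0 of 9 regions were called (0.397% in either direction, unadjusted p under 0.05 at 1, DESeq2 0 calls), and with KLA 1 of 9 (0.702% of all called higher). The call was at 0.9 kb upstream of Il12b, with 13.5 and 17.4 in flox/flox and 32.5 and 35.8 with Cre (1.15, SE 0.44, adjusted p = 0.0231), and it was lost without flox KLA replicate 1 or Cre KLA replicate 1 or 2. At 22 kb upstream flox/flox measured 26.3 and 24.2 and Cre 39.0 and 56.0 (0.91, adjusted p = 0.0158), which became a call with TMM scaling (1.31). At 27 kb upstream the difference was 0.47 (adjusted p = 0.0205). At the Il23a start the difference was 0.55 (adjusted p = 0.0142, not called), and the median of the 4 Il12a regions was -0.33. Ebi3 measured 236 and 231 in flox/flox and 179 and 154 with Cre (-0.49, adjusted p = 0.000656, not called), close to the median of all regions, -0.38, and TMM scaling gave -0.10 for Ebi3. In KLA the share of tags in regions was 29.9% and 30.1% in flox/flox and 22.4% and 21.97% with Cre, and its part in these differences was not tested.

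A difference of the KLA responses between these genotypes was called at 1 of 9 member regions, the Il23a start. Of all regions 0.770% were called higher. The 3 Il12b regions were not called, but their median difference of responses was 1.29. It was -0.58 for the 4 Il12a regions and -0.18 for all regions. Il23a measured 25.8 and 29.1 with Veh and 71.0 and 99.9 with KLA in flox/flox, and 21.8 and 11.3 and then 121 and 129 with Cre. The mark thus rose by 1.64 in flox/flox and by 2.90 with Cre, and the difference of responses was 1.26 (SE 0.36, adjusted p = 0.00398). Without Cre Veh replicate 2 it was 0.87 and not called.

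With the HDAC3 inhibitor RGFP966 and KLA, H3K27ac was called higher at 3 of 3 Il12b regions and 1 Il12a region, and was not called at Il23a or Ebi3. In all, 4 of 9 member regions were called higher than with KLA and DMSO, against 26.9% of all regions. At 22 kb upstream of Il12b the DMSO libraries measured 17.4 and 16.6 with Veh and 25.9 and 24.4 with KLA, and the RGFP966 libraries with KLA 87.5 and 79.9 (1.73 over KLA, SE 0.28, adjusted p = 1.29e-08). The mark was thus far higher with the inhibitor and KLA than in any DMSO library. The region 27 kb upstream reached 142 and 118 (1.12), and that 0.9 kb upstream 20.4 and 26.4 from 9.71 and 9.26 (1.29). At 13.4 kb upstream of Il12a the mark went from 4.53 and 4.21 to 19.8 and 14.2 (1.93, SE 0.59). Il23a went from 85.5 and 64.8 to 134 and 130 (0.80, adjusted p = 0.00149), under 2-fold.

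Other regions that had gained the mark with KLA were not called with RGFP966. At 18.2 kb downstream of the Il12a start KLA gave 71.2 and 68.2 and RGFP966 with KLA 64.5 and 54.9 (-0.22, not called), and Ebi3 measured 280 and 252 and then 240 and 227 (-0.19, not called). The median of all regions was 0.39 higher with RGFP966. TMM scaling brought it to 0.04 and left 2 of the 4 calls, Il12b at 22 kb upstream (1.39) and Il12a at 13.4 kb upstream (1.60). Of all 25045 regions 4031 were called higher with that scaling. Without RGFP966 KLA replicate 1 the member count was 2 as well.

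NCoR was called lower with ERKi and KLA than with KLA at 16 of 39 member peaks, where 48.6% of all NCoR peaks were called lower (medians -1.05 and -1.20). The ERKi libraries carry a later date in the labels than the KLA libraries, which are those of the Veh and KLA comparison, and they held 15.0% to 15.8% of their tags in peaks against 33.3% to 34.2%. Drug, date and that share cannot be told apart. Il12a had 9 of its 13 peaks called lower, Il12b 5 of 13, Il23a 1 of 2, Ebi3 1 of 2 and Il27 0 of 9. Without KLA replicate 1 the count was 9, and without KLA replicate 2 it was 10.

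NCoR at 22 kb upstream of Il12b measured 298 and 304 with KLA and 93.0 and 94.8 with ERKi (-1.68, SE 0.21, adjusted p = 0.000122). At 27 kb upstream of the same gene it measured 96.4 and 120 with KLA and 160 and 128 with ERKi (0.40, not called). These neighbouring sites thus lay on opposite sides of 0, and with TMM scaling the value at 27 kb was 1.57 (adjusted p = 0.000667, called higher). At 9.9 kb upstream NCoR measured 320 and 273 and then 173 and 195 (-0.69, not called). Il12a at 57.9 kb upstream went from 233 and 174 to 72.7 and 56.0 (-1.66) and Ebi3 from 257 and 249 to 87.9 and 128 (-1.23). The Il23a start measured 275 and 251 and then 133 and 134 (-0.98, adjusted p = 0.00113), just under 2-fold. At Il27 the values were -0.93 at 4.3 kb upstream (194 and 196, then 85.4 and 119) and -0.30 at 1.2 kb upstream (94.8 and 97.5, then 83.7 and 72.4), neither called. The median of the 9 Il27 peaks was -0.58 and that of the 13 Il12a peaks -1.54. TMM scaling left 1 peak called lower, 14.9 kb downstream of the Il12b start (-1.02), and 1 called higher, the one at 27 kb. Of all 57573 NCoR peaks it called 1946 lower and 1985 higher.

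**Figure D5:**
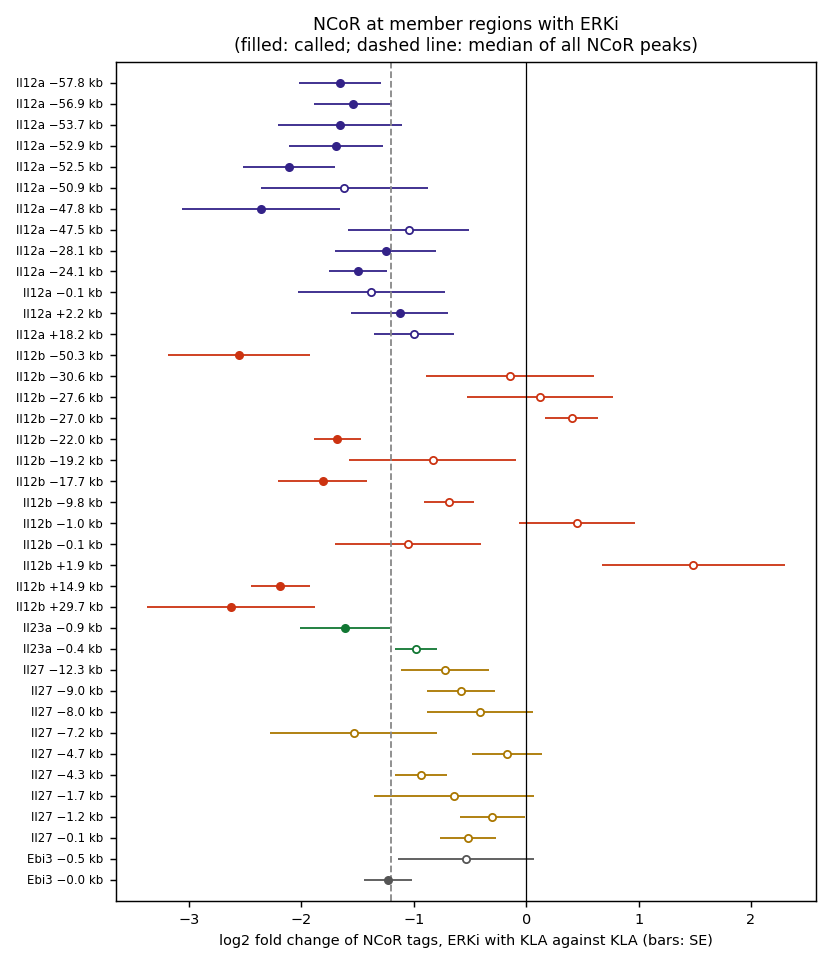
Log2 difference in NCoR between ERKi with KLA and KLA alone at the 39 member peaks, with the SE of the fit as bars, by gene; filled points were called, and the dashed line is the median of all NCoR peaks, -1.20. Of the Il12a points 10 of 13 lie below the line, of the Il27 points 8 of 9 lie above it, and 4 of 13 Il12b points lie above 0.

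PGC1β was called at 0 of 36 member peaks with ERKi and KLA against DMSO and KLA by edgeR's test, where 0.286% of all peaks were called in either direction. Over all peaks, Pearson's r between the 2 libraries was 0.66 with DMSO and KLA and 0.69 with ERKi and KLA. An unadjusted p under 0.05 was reached at 10 of the 36, and DESeq2 called 2. Those 2 lay in the Il27 gene, 0.4 kb downstream of its start with 5.92 and 14.9 and then 90.7 and 63.4 (2.82, adjusted p = 0.0764), and 1.5 kb downstream with 23.7 and 19.4 and then 100.1 and 67.2 (1.96, adjusted p = 0.133). Both were higher in each ERKi library than in each DMSO library. At 27 kb upstream of Il12b PGC1β measured 45.4 and 58.0 and then 105 and 140 (1.23, adjusted p = 0.176).

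Few member regions were listed in osteoclast differentiation, a fate in which bone marrow cells become bone-resorbing cells. p300 was called higher on Day 4 than on Day 0 at 2 of 3 regions, against 62.2% of all p300 peaks. They lay 76.5 kb upstream (3.52 and 0 to 26.4 and 23.8, 3.29) and 17.5 kb downstream (0.88 and 0 to 44.0 and 38.6, 5.78) of the Il12b start, and TMM scaling left the second. With that scaling 1773 of all 20143 p300 peaks were called higher. The p300 libraries held 3.08% and 3.16% of their tags in peaks on Day 0 and 9.61% and 9.53% on Day 4, and without Day 4 replicate 1 the member count was 0. ERK1 was called at 0 of 4 member regions (2.35% of all in either direction), with an unadjusted p under 0.05 at 1 and 0 calls by DESeq2. Over all ERK1 peaks, Pearson's r between the 2 libraries was 0.49 on Day 0 and 0.48 on Day 4. Day 4 replicate 2 is described as rep3, with a later date in its label and without the NCoRWT of the other libraries. The share of tags in peaks was 2.79% and 2.98% on Day 0 and 6.46% and 4.50% on Day 4. Among all ERK1 peaks 348 were called higher, and 0 with TMM scaling. The region with that p, 27 kb upstream of Il12b, measured 5.17 and 8.41 and then 28.0 and 21.5 (1.85, adjusted p = 0.116).

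A list of 21 genes of the IL-12 pathway, chosen for their known roles, gives the surroundings of these results. In H3K27ac of WT cells, 57 tested regions had 1 of 16 of these genes as the nearest. KLA gave 9 higher (5 genes) and 4 lower (4 genes), against 6.49% and 3.72% of all regions. Of the 5 genes of cytokine receptors, which pass the signal of the secreted pairs, 2 had tested regions. Of their 5 regions 0 were higher and 1 was lower. The lower one lay 23.9 kb upstream of Il6st, the shared chain of the IL-27 receptor (35.9 and 36.2 to 6.29 and 1.38, -3.17). Kinases and STATs had 4 higher and 0 lower of 17, and transcription factors 5 and 3 of 35. The largest gain was in an intron of Nfkb1, which encodes an NF-κB subunit (1.26 and 0 to 16.4 and 23.4, 4.94). Another region in an intron of Nfkb1 was called lower (14.5 and 15.8 to 5.66 and 0, -2.35). Nfkbiz also had regions called in both directions. NCoR was called higher at 87 and lower at 26 of 210 peaks of the list, with 1 higher and 7 lower of 21 at the receptors, and of all NCoR peaks 23.4% were higher and 16.7% lower. p65 was called higher at 140 and lower at 10 of 197, and of all p65 peaks 57.0% were higher and 5.43% lower.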

How the data were processed

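ChIP-seq was performed in mouse BMDM, and in bone marrow cells for the osteoclast time course, with 2 libraries per group. The authors aligned single-end reads to mm10 with Bowtie2, called peaks with HOMER and kept peaks reproducible between replicates (IDR). Peaks of the conditions compared were merged. They deposited raw tag counts per region with the total tags of each library in the column header and the gene of the nearest TSS. Tool versions were not given in the sources used here. H3K27ac was counted over ATAC-seq peaks, at their own width in the WT and NKO table and in 1000-base windows in the others. The replicates quantified were those of reasonable correlation per the authors, which limits the spread seen. 30 input samples were not analysed here.

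From the deposited counts, 25 comparisons were tested with edgeR 4.0.16 (R 4.3.3), 1 fit per table, quasi-likelihood F-test, two-sided, libraries scaled by the header totals, and Benjamini-Hochberg adjustment over all tested regions. A factor peak was tested with at least 4 tags and an H3K27ac region with at least 16 in at least 1 library, after the study's filters. Called means an adjusted p under 0.05 and over 2-fold. SE is the absolute log2 difference divided by the square root of F. A fold against a group without tags is a bound against 3 counts over the group. The p-values measure the spread between the 2 libraries of a group, pooled over the groups of a table and moderated across its regions. These libraries were chosen for their correlation. Pearson's r of log2 values between the 2 libraries of a group went from 0.48 to 0.98. It was lowest for ERK1 on Day 4 (0.48) and Day 0 (0.49) and for p300 on Day 0 (0.56). The fit was tested on simulated data.

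Each member was described by its strongest region, the region nearest its TSS, every called region, and sites with at least 5 of the 8 factors. The members and the lists were chosen with earlier results of these data known. Sites join regions with centres within 500 bp. Gene coordinates, promoters and sequences are from RefSeq (GRCm38.p6, the assembly of mm10), read with samtools 1.23.1. Of 359 listed distances 280 matched a RefSeq start of the gene within 1 bp. Alternatives were TMM and DESeq2 size factors, DESeq2 1.42.0, other filters, no fold minimum, the replicate number as a term, and leaving out each library. Same-numbered libraries of different groups did not deviate together (31 correlations from -0.027 to 0.026). Python 3.11.15, pandas 2.3.3 and matplotlib 3.10.9 were used.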

Additional observations from a re-analysis of the deposited data

Results flagged for a closer look

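The KLA response of H3K27ac at the Il23a start differed between PGC1b flox/flox cells and those with LysMCre by 1.26 on the log2 scale (SE 0.36, edgeR's interaction test, adjusted p = 0.00398). This difference between genotypes under the same contrast is what marked it for a closer look. All 4 KLA libraries lay above all 4 Veh libraries, and the Cre libraries lay below the flox/flox libraries with Veh (21.8 and 11.3 against 25.8 and 29.1 tags per 10 M) and above them with KLA (121 and 129 against 71.0 and 99.9). TMM scaling gave 1.45, and without Cre Veh replicate 2 the difference was 0.87 and was not called. In that comparison 0.770% of all regions were called higher. The 3 Il12b regions, none of them called, had a median difference of 1.29, so a difference of this size was not particular to Il23a.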

How the results depend on the processing

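Of 2852 alternative values for 285 log2 differences, 2444 kept their direction and side of the threshold, 367 lost the call, 13 became calls and 28 turned their direction. TMM scaling shifted the median of all regions by over 0.1 in 22 of 25 comparisons (by -1.62 to 1.16), and the causes of the changes below were not tested. Other filters on low counts changed none of the 285.

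The NCoR ERKi count of 16 was 2 with TMM, 3 with DESeq2 size factors and 5 with DESeq2. NCoR with ERKi turned direction with TMM, DESeq2 size factors and DESeq2 at the Il23a start (0.19, 0.20 and 0.20), at Il12b 9.9 kb upstream (0.48, 0.50 and 0.50), at Il12a 2.2 kb downstream (0.0365, 0.0486 and 0.0477), and at Il27 1.2 kb upstream (0.86, 0.88 and 0.88) and 4.3 kb upstream (0.24, 0.25 and 0.25). In the same order PU.1 with KLA gave 0.0169, 0.012 and 0.0091 at Il12b 27 kb upstream and 0.13, 0.12 and 0.12 at Ebi3, and p65 gave -0.22, -0.19 and -0.19 at Il12b 14.9 kb downstream.

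The p65 count of 43 was 27 with DESeq2. The RGFP966 count of 4 was 2 with TMM and 2 with DESeq2. The count of 1 for PGC1b floxed cells with KLA was 2 with TMM, size factors and DESeq2, and the count of 1 for their responses was 2 with TMM and size factors. PGC1β with ERKi had 2 calls with DESeq2 instead of 0. Without a fold minimum the PU.1 count of 8 was 13 and that of PGC1b floxed cells with KLA was 5. p300 on Day 4 had 1 call with TMM, 1 with size factors and 0 with DESeq2, instead of 2. Joining centres within 100 or 1000 bp gave 76 or 53 sites instead of 63, and 26 or 18 with at least 5 factors.

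The replicate numbers did not pair the samples. With the replicate block the Fosl2 count of 11 was 4 and the p300 Day 4 count of 2 was 1, and of the 285 differences 19 lost their call and 0 turned direction.

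With each library left out in turn, counts went from 15 to 27 for NCoR, 19 to 26 for HDAC3, 28 to 42 for p65, 0 to 18 for Fosl2, 8 to 8 for PU.1, 12 to 17 for PGC1β, 11 to 18 for PGC1β with DMSO, 2 to 7 for ERK1 and 35 to 44 for p300. For H3K27ac with KLA they went from 2 to 3 in WT, 2 to 3 in NKO, 5 to 7 with DMSO, 4 to 8 in PGC1b flox/flox and 5 to 6 with Cre. For Cre against flox/flox they went from 0 to 1 with Veh, 0 to 1 with KLA and 0 to 1 for the responses. They went from 2 to 4 for RGFP966, 9 to 17 for NCoR with ERKi and 0 to 3 for p300 on Day 4. Direction turned for H3K27ac at Ebi3 in KLA, NKO against WT (from -0.6545 to 0.0826, the latter without NKO KLA replicate 1), for NCoR at Il12a 24.1 kb upstream (from -0.0389 without Veh replicate 1 to 0.2201) and for PU.1 at the Il23a start (from -0.0245 without Veh replicate 1 to 0.0993). A lone library left in a group is assumed to vary like the others. The 2 Il12b regions of the WT and NKO table held too few tags to be tested.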

Other observations

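Regions of other genes with the most similar H3K27ac over the 8 WT and NKO libraries were named by Pearson's r of log2 values across 18504 regions, as a description. All of the values share these libraries and their KLA response. For Il12a at 57.9 kb upstream they were near Mmp14 (r = 0.989), D10Jhu81e (0.988) and Mir29b-2 (0.986). For the Il23a start they were near Ehd1, Alpk2 (0.989) and Aoah (0.988). For Il27 at 4.3 kb upstream they were near Ifngas1 (0.980), Ube2e2 and Efna2 (0.966), and for Ebi3 near Ptpro (0.976), Exosc7 (0.965) and Fgd2. Il12b had no tested region in that table.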
